A study of Mus musculus with 41 samples.

Results

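Peyer's patches from mice with ovalbumin-provoked food allergy and from untreated mice were profiled by droplet single-cell RNA sequencing in a set of 6 libraries that held mostly innate cells. The cells were those whose barcode names carry either of 2 run dates, 1 in July and 1 in September, which gave 14775 of the 58067 cells in the deposited matrix. The 3 food allergy libraries held 2715, 2665 and 2046 cells and the 3 control libraries 2518, 2306 and 2525 cells. All mice were female BALB/cJ of 10 weeks. The food allergy group is labelled Food Allergy and had been provoked with ovalbumin, and the control group is labelled wild type and untreated. Library 3 of each group came from the July run and libraries 1 and 2 from the September run, and values are listed in the order 1, 2, 3. Whether libraries came from separate mice or from pooled tissue is not stated in the labels, so the p-values measure the spread between libraries, which may be technical. The other single-cell experiments of the series covered further Peyer's patch runs (22022 cells) and sorted lamina propria cells named nonTB (15263 cells).

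Peyer's patches are lymphoid follicles in the wall of the small intestine. Beside B and T cells they hold innate lymphoid cells (ILCs), which lack antigen receptors and answer cytokines and neuropeptides. ILC2s release the type 2 cytokines IL-13, IL-5 and IL-4, ILC3s release IL-22 and support the epithelial barrier, and ILC1s and natural killer (NK) cells release interferon gamma and granzymes. Mast cells carry antigen-bound IgE on the receptor encoded by Fcer1a, Ms4a2 and Fcer1g and release histamine and granule proteases when antigen binds it. Mice made allergic to ovalbumin through the gut accumulate mucosal mast cells, whose typical proteases are Mcpt1 and Mcpt2.

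The libraries held fewer T cells than the other Peyer's patch runs. Cells with a UMI (a unique molecular identifier, 1 counted transcript) of a T cell marker made up 11.7 to 21.2% of a library, against 56.4 to 91.7% in the other Peyer's patch runs and 3.24 to 5.46% in the lamina propria nonTB libraries. For B cell markers the range was 15.2 to 24.1%, against 7.12 to 69.8% in the other Peyer's patch runs. Library totals lay between 8800090 and 12409563 UMIs and median UMIs per cell between 2897 and 3632. The July food allergy and control libraries shared 64 barcodes, 3.13% of the smaller library, whereas other pairs shared 3 to 16. Profiles behind the barcodes shared in July were more alike than other pairs of cells of those libraries (median correlation 0.534 against 0.440). Results without these cells are given where they differ.

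Clustering gave 27 clusters, of which 22 could be named from markers, and 3923 cells (26.55%) stayed unnamed. The largest unnamed clusters were cluster 0, led by Slc6a20a, Upp1 and Actn2 with ILC3 markers at lower rank, and cluster 6. Names were rebuilt here, so a difference from the study's own cell types may come from the naming.

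Mast cell-like cells were the class with the largest ratio of shares between the groups, although their share in the July food allergy library was close to that of its control. They were 2.76, 2.89 and 0.782% of cells in the food allergy libraries (75, 77 and 16 cells), against 0.357, 0.564 and 0.753% in the control libraries (9, 13 and 19 cells). The exact (Clopper-Pearson) 95% intervals were 2.18 to 3.45, 2.29 to 3.60 and 0.448 to 1.27% in food allergy, against 0.164 to 0.677, 0.301 to 0.962 and 0.454 to 1.17% in control, which cover counting error only. The groups did not overlap, but the July pair differed by less than its counting intervals. Without the cells that shared a barcode the July order turned, with 0.766% in food allergy and 0.784% in control, and the groups overlapped (two-sided exact p = 0.3333). The mean share was 2.15% ± 1.18 in food allergy and 0.558% ± 0.198 in control (SD, n = 3 each), a ratio of 3.84. Exact permutation of the condition within runs gave a two-sided p of 0.1667 (adjusted 0.218 over 17 units), the smallest that its 12 arrangements allow, so no share could pass 0.05 in that test. A negative binomial test of the cell numbers in edgeR, with run as a term, gave a ratio of 3.78 and an adjusted p of 1.87e-06.

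Plasma cell-like and T cell-like shares were also higher in every food allergy library than in any control library. Plasma cell-like cells were 1.66, 1.39 and 1.08% in food allergy, against 0.675, 0.694 and 1.03% in control. That separation was lost without the cells that shared a barcode, where the July libraries held 5 such cells (0.256%) in food allergy and 9 (0.371%) in control, and with cells of at least 1000 UMIs, where the July food allergy library was at 0.674%. T cell-like cells were 4.49, 4.58 and 4.20% in food allergy, against 2.74, 3.51 and 2.38% in control, a ratio of 1.54. Of the class's clusters, cluster 7, led by Cd3d and Cd3e, held 89, 83 and 73 cells in food allergy, against 31, 42 and 31 in control, and cluster 14, led by Cd3g, Gzma and Klra5, held 33, 39 and 13 cells, against 38, 39 and 29 in control. After clustering without called genes the T cell-like ratio was 2.32, with the cluster led by Cd3g, Gzma and Klra5 named NK cell or ILC1-like instead. ILC3-like cells lay lower, at 16.8, 16.4 and 16.3% in food allergy, against 19.3, 17.7 and 21.7% in control. The groups overlapped after clustering without called genes (ratio 0.908), where a cluster led by Spry2, Abhd2 and Pxdc1 stayed unnamed. That cluster held 91, 35 and 23 cells in food allergy, against 144, 53 and 127 in control, and its part was not tested. At a finer resolution ILC3-like shares were 19.48, 19.85 and 18.23%, against 28.71, 27.28 and 34.34% in control, without overlap (ratio 0.637). B cell-like, endothelial-like, stromal-like and epithelial-like shares were lower in every food allergy library, with B cell-like cells at 1.33, 1.20 and 0.684%, against 2.54, 2.47 and 2.89% in control. ILC2-like cells were 5.41, 5.25 and 7.77% in food allergy, against 4.53, 4.12 and 6.06% in control. NK cell or ILC1-like cells were 18.9, 18.1 and 26.1% in food allergy, against 15.6, 14.4 and 18.5% in control. Those last groups overlapped, because the July libraries of both groups held more of these cells. Shares of a library add up to a whole, so a larger share of 1 class lowers the rest.

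**Figure D1:**
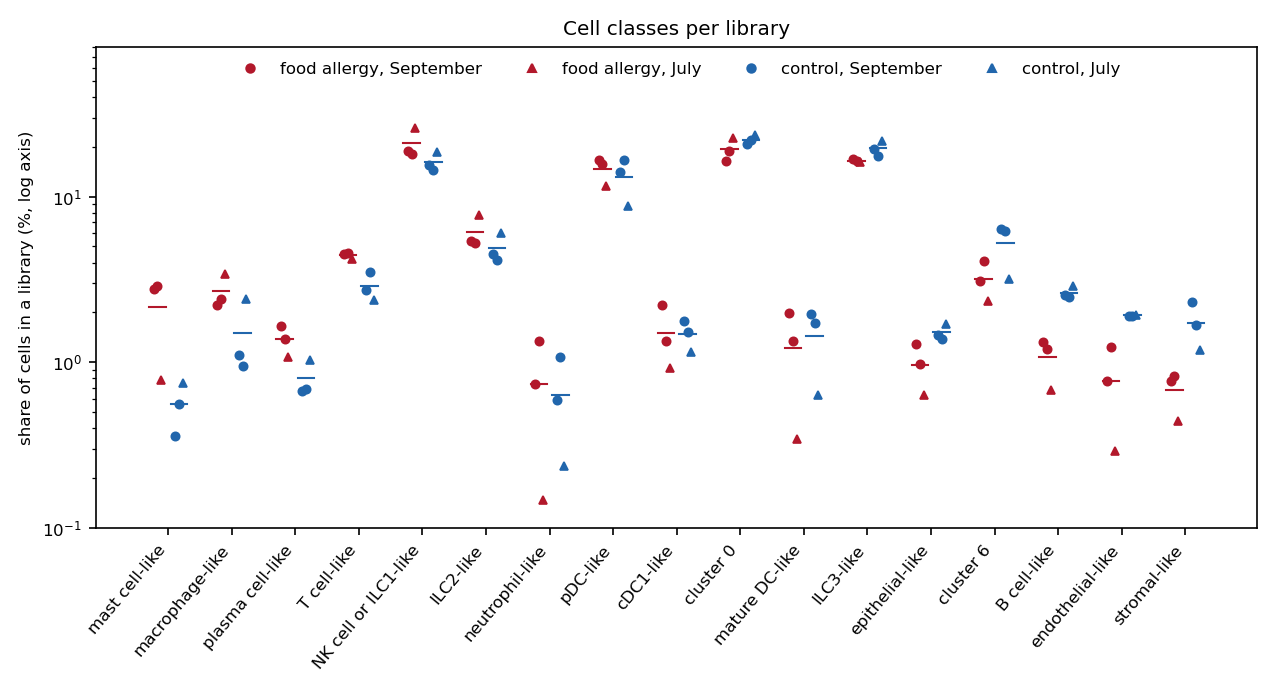
Share of each class among the cells of a library (percent, log axis), food allergy to the left of control; circles are September libraries, triangles July libraries and bars group means. Mast cell-like cells reach 2.76 and 2.89% in the September food allergy libraries and 0.782% in the July one, against 0.357 to 0.753% in control.

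In UMIs summed over whole libraries, Il13, Il4, the growth factor gene Areg and 9 of 15 tested mast cell genes were higher in food allergy. In such sums fewer cells of a type and less RNA per cell cannot be told apart. With edgeR's quasi-likelihood test and run as a term, 494 of 13394 genes passed an adjusted p of 0.05, 3.69 percent (231 higher, 1.72, and 263 lower, 1.96). Only 8 of these passed in all 6 fits that left out 1 library, and the count was 124, 56 and 741 without food allergy library 1, 2 or 3, and 9, 84 and 851 without control library 1, 2 or 3.

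Il13 (chr11:53631324-53634702, minus strand, mm10) encodes the cytokine behind goblet cell mucus and smooth muscle responses. It stood at 102, 117 and 182 CPM (UMIs scaled to a common library total) in the food allergy libraries, against 14.8, 12 and 10.9 CPM in the control libraries. The groups lay far apart in both runs, and the log2 fold change was 3.35 ± 0.22 (SE), 10.2-fold, with an adjusted p of 3.90e-03 that held without any 1 library. ILC2-like cells held 79.7% of the food allergy UMIs of Il13 and mast cell-like cells 13.5%. Il4 (chr11:53602982-53618669), which drives IgE switching, had 52.8, 65.2 and 87.8 CPM in food allergy, against 10.4, 9.90 and 7.80 CPM in control, with mast cell-like cells holding 31.6% of its food allergy UMIs. Its log2 fold change of 2.83 ± 0.20 (adjusted p = 5.11e-03) narrowly missed the threshold without control library 1 (2.95, adjusted p = 0.0547). Il5, the eosinophil growth factor, had 2.15, 7.34 and 7.62 CPM in food allergy, against 1.21, 0.0925 and 3.23 CPM in control. The groups overlapped and the difference missed the threshold (2.11 ± 0.71, adjusted p = 0.158).

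Of 12 tested type 2 cytokines and ILC2 products, 5 were higher and 0 lower, and the list's median log2 fold change was 0.65, against 0.01 over all tested genes. Areg, the epidermal growth factor ligand amphiregulin, had 72.0, 68.3 and 126 CPM in food allergy, against 33.3, 35.1 and 59.8 CPM in control (1.05 ± 0.06, adjusted p = 2.38e-03). Both groups were higher in July, and within each run food allergy lay above control. Ccl1, a ligand of the receptor Ccr8, had 61.1, 67.5 and 45.5 CPM in food allergy, against 2.98, 8.88 and 6.24 CPM in control (3.26 ± 0.32, adjusted p = 9.60e-03), and missed the threshold without food allergy library 2 (3.16, adjusted p = 0.0611). ILC2-like cells held 56.9% and mast cell-like cells 38.4% of its food allergy UMIs.

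Of 15 tested mast cell granule and IgE receptor genes, 9 were higher and 1 lower in food allergy, with a median log2 fold change of 2.50. Mcpt1 (chr14:56017971-56020384, plus strand) had 3174, 3648 and 1022 CPM in food allergy, against 118, 96.6 and 275 CPM in control. The July food allergy library was the lowest of its group and the July control the highest of its group, but they did not cross. The log2 fold change was 4.04 ± 0.68 (adjusted p = 3.41e-02), and 97.6% of the food allergy UMIs came from mast cell-like cells. Mcpt2 (4.24 ± 0.80), Mcpt4 (4.21) and Tph1, the first enzyme of serotonin synthesis (3.50 ± 0.66), likewise had their lowest food allergy value and their highest control value in July. Hdc, the histamine-forming enzyme, had 39.3, 44.5 and 32.4 CPM in food allergy, against 10.2, 16.5 and 10.4 CPM in control (1.65 ± 0.17, adjusted p = 1.00e-02). Cma1 (2.08, adjusted p = 0.0692) and Fcer1a (2.94, adjusted p = 0.0645) missed the threshold. Kit, the stem cell factor receptor that ILC3-like cells also carry, was lower (-0.45 ± 0.07, adjusted p = 2.41e-02). None of these 10 calls held in every fit that left out 1 library: those of Mcpt1, Mcpt2, Mcpt4, Tph1 and Kit were lost without food allergy library 1 or 2 or control library 1 or 2 (for Mcpt1 3.50 to 3.89, with adjusted p 0.0865 to 0.187), while without either July library Mcpt1 was at 4.99, Mcpt2 at 5.28, Mcpt4 at 5.80 and Tph1 at 4.83, and that of Hdc without food allergy library 2 (1.59) or control library 1 (1.46). With mast cell-like cells left out of the sums, Mcpt1 stood at 2.91 (adjusted p = 0.061) and Gata2, a mast cell transcription factor, at -0.031, against 2.11 with them, whereas Il13 (3.32), Il4 (2.43) and Ccl1 (2.65) stayed high.

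Prr7, Fam110a and Grasp were among the genes lower in food allergy, with smaller falls than the epithelial genes Zg16 and Defa20 given below. Prr7, a transmembrane adaptor, had 43.4, 40.4 and 43.4 CPM in food allergy, against 101, 98.0 and 102 CPM in control (-1.24 ± 0.06, adjusted p = 1.97e-03). Fam110a had 61.6, 64.1 and 59.3 CPM, against 141, 144 and 169.8 CPM in control, and Grasp 65.8, 72.2 and 38.2 CPM, against 148, 138 and 81.0 CPM. Food allergy lay below control within each run for all 3. The same sign in both runs and a call in every fit that left out 1 library were conditions for naming them. Of 16 cytotoxic granule and killer receptor genes, 8 were higher and 0 lower, among them Klre1 (0.85), Gzma (0.72), Eomes (0.71) and Klrb1c (0.68). None of these 8 held in every fit that left out 1 library (Klre1 without food allergy library 1 or 2 or control library 1 or 2, with adjusted p 0.0671 to 0.0884), and the NK cell or ILC1-like share moved with them (21.0% in food allergy and 16.2% in control on average). Its part in these calls was not tested. The antimicrobial and epithelial genes Zg16 and Defa20 had 31 and 1 UMIs in the food allergy libraries, against 865 and 272 UMIs in the control libraries. The 10 epithelial markers, all with UMIs, summed to 98.9 to 779 CPM in food allergy, against 950 to 1111 CPM in control, and their part was not tested.

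Within ILC2-like cells (147, 140 and 159 cells in food allergy, against 114, 95 and 153 in control), type 2 products were higher and many early response genes lower. Of 5447 tested genes 211 passed, 3.87 percent (129 higher, 2.37, and 82 lower, 1.51). Of 12 type 2 cytokines and ILC2 products 7 were higher and 1 lower, with a median log2 fold change of 1.26, against 0.00 over all tested genes. Il13, Il5, Areg and Ccl1, which are among the higher genes, are also ILC2 markers used in naming the class. After reclustering without the 1222 genes called in any class, 99.0% of the ILC2-like cells were again in that class, against 93.7% of NK cell or ILC1-like, 87.5% of ILC3-like and 61.7% of T cell-like cells.

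Il13 in the sums over ILC2-like cells stood at 1826, 2081 and 1945 CPM in food allergy, against 409, 323 and 154 CPM in control. Food allergy libraries were close to each other, while the July control was the lowest of the controls. The log2 fold change was 2.79 ± 0.16, 6.92-fold (adjusted p = 5.72e-14). Areg had 1270.0, 1223 and 1449 CPM in food allergy, against 368, 482 and 401 CPM in control, without overlap (1.66 ± 0.12, 3.16-fold, adjusted p = 1.94e-11). Il4 had 633, 858 and 939 CPM in food allergy, against 282, 209 and 81.6 CPM in control (2.17 ± 0.21, adjusted p = 1.23e-08). Il5 had 49.0, 149.8 and 86.9 CPM in food allergy, against 32.6, 3.17 and 52.9 CPM in control, and the groups overlapped. Its call (1.58 ± 0.39, adjusted p = 1.12e-02) was lost without food allergy library 2 (0.98, adjusted p = 0.182) or control library 2 (1.10, adjusted p = 0.0793), and the value was 2.45 without either July library.

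Il6, a cytokine of B cell and T cell help, had 64.7, 40.7 and 58.4 CPM in ILC2-like cells of food allergy, against 14.8, 6.34 and 2.21 CPM in control (2.87 ± 0.44, adjusted p = 3.89e-05), without overlap. The value was 3.75 without control library 1, 2.28 without food allergy library 3 and, leaving out control library 3, 2.27. Ccl1 was likewise higher (2.10 ± 0.22, adjusted p = 2.77e-08). Il17a, an ILC3 and T helper cytokine, had 105 UMIs in food allergy, 145, 31.4 and 19.9 CPM, against 3 UMIs in control, and most of the 105 came from library 1. Csf2, a myeloid growth factor, had 331, 178 and 38.5 CPM in food allergy, against 145, 143 and 8.82 CPM in control, with the July libraries low in both groups. Its call (0.93 ± 0.23, adjusted p = 1.40e-02) was lost without food allergy library 1 (0.56, adjusted p = 0.362). Bmp2, a bone morphogenetic protein, fell to 21.6, 14.8 and 7.13 CPM in food allergy, against 71.2, 114 and 30.9 CPM in control (-2.28 ± 0.33, adjusted p = 1.60e-05). Among receptors for the alarmins that start ILC2 responses, Il1rl1 differed by 0.16 ± 0.25 (adjusted p = 0.859) and Il17rb by 0.02 ± 0.14 (adjusted p = 0.967). Of 12 tested alarmin and type 2 cytokine receptors, 2 were higher (Il2ra and Adora2a) and 0 lower. In the class comparison below, 3 of 13 (Crlf2, Il2rg and Ramp3) had a higher effect in ILC2-like than in ILC3-like cells and 0 a lower one.

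**Figure D2:**
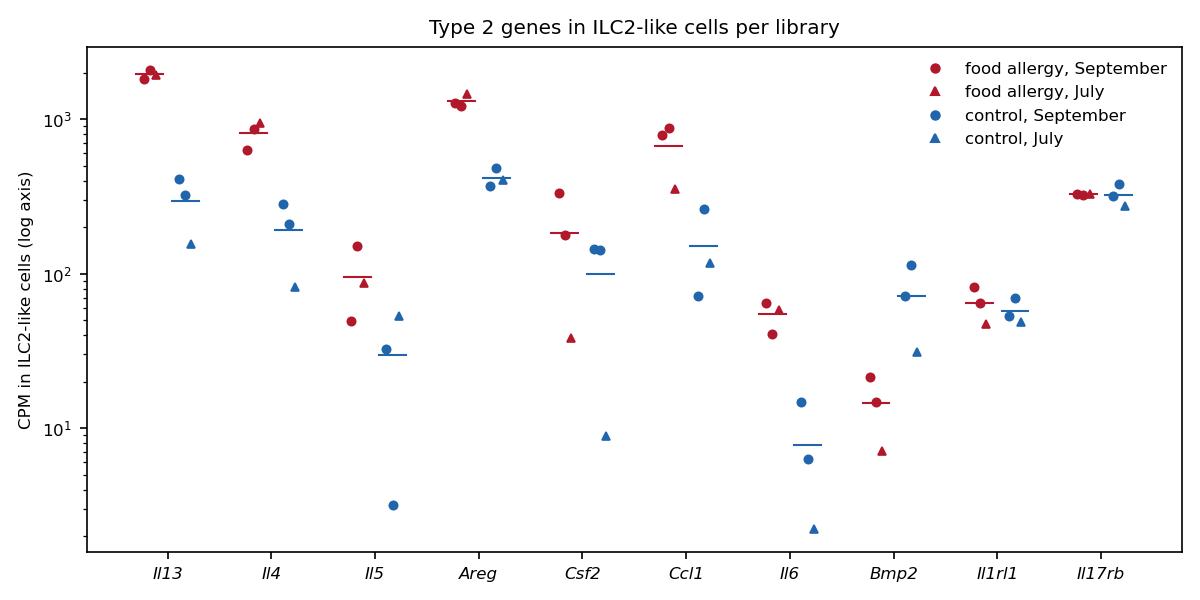
CPM in sums over ILC2-like cells (log axis) per library, food allergy to the left of control; circles are September libraries, triangles July libraries and bars group means. Il13 and Areg have at least 1223 CPM in every food allergy library and at most 482 CPM in every control library, whereas Il5 and Csf2 overlap.

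Early response genes are switched on within minutes of receptor signals and also by tissue dissociation, and many encode AP-1 factors or phosphatases that end the signal. NF-kB drives inflammatory genes and, among them, its own inhibitors such as Nfkbia. In ILC2-like cells 4 of 23 tested immediate early and AP-1 genes were higher and 13 lower (median -0.75), while 2 of 15 NF-kB feedback genes were higher and 0 lower (median 0.31). Promoters of 3 genes whose level differed between the groups are shown because each holds a motif of factors acting downstream of these signals. The sequences are the 250 bases before the RefSeq start on GRCm38.p6, with the cAMP response element TGACGTCA or the kB motif, GGGA and TTCC with any 2 bases between them, in capitals, both searched on both strands. Areg is at chr5:91139349-91139598 (plus strand), Dusp1 at chr17:26508473-26508722 (minus strand) and Nfkbia at chr12:55492648-55492897 (minus strand), where the capitals are the reverse strand of the kB motif.
Areg: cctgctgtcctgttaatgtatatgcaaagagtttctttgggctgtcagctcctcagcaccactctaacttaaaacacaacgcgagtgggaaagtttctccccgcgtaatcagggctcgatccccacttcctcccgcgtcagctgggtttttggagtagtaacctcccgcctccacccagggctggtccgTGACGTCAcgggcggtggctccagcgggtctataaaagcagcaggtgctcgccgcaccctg
Dusp1: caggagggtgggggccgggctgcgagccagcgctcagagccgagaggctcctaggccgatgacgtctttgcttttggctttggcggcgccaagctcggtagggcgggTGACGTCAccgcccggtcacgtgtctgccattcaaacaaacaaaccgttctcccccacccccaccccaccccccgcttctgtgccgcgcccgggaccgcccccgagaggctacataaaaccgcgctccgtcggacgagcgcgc
Nfkbia: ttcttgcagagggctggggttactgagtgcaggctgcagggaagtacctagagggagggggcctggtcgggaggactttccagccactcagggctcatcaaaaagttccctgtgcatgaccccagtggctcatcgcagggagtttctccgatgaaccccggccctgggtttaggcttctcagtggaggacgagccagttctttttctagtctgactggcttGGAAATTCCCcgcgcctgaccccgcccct
The element begins 61 bases before the start in Areg and 143 bases before it in Dusp1, and the kB motif 29 bases before it in Nfkbia. The cAMP response element stood in 508 of 32851 promoters of this length (1.55%) and the kB motif in 397 (1.21%). It stood in 3 of 21 immediate early genes in the table (Btg2, Dusp1, Ppp1r15a) and 1 of 11 NF-kB feedback genes (Nfkbid), the kB motif in 0 of 21 and in 2 of 11 (Nfkb2, Nfkbia). A match describes the letters and shows no binding.

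Among the genes of these lists that were higher in ILC2-like cells, Rel, an NF-kB subunit (chr11:23736847-23770970, minus strand), had 321, 340.3 and 375 CPM in food allergy, against 80.0, 105 and 128 CPM in control. The groups did not overlap (1.72 ± 0.16, adjusted p = 6.88e-09). Egr2, a zinc finger factor of antigen and cytokine signals, had 86.2, 86.9 and 44.2 CPM in food allergy, against 23.7, 3.17 and 8.82 CPM in control (2.53 ± 0.37, adjusted p = 1.60e-05, and 3.22 without control library 1). Nab2, a corepressor that binds Egr factors, had 58.8, 72.1 and 151 CPM, against 14.8, 19.0 and 13.2 CPM in control (2.64 ± 0.32, and 1.96 without food allergy library 3 or control library 3), with the July library highest. Nr4a2, a nuclear receptor (0.91 ± 0.15), and Dusp2, a MAP kinase phosphatase (1.43 ± 0.26), were also higher. Plk3, a stress kinase, had the largest change among genes called in every fit that left out 1 library, with 225, 194 and 138 CPM in food allergy, against 23.7, 6.34 and 30.9 CPM in control (3.04 ± 0.28, adjusted p = 4.32e-09, and 3.77 without food allergy library 3 or 3.76 without control library 3). Nfkb1 (0.43, adjusted p = 2.46e-02) missed the threshold without food allergy library 1 (0.36) or 2 (0.40) or control library 1 (0.28).

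Fos, the AP-1 subunit, was the clearest of the lower genes in ILC2-like cells, with 1285, 1034 and 1237 CPM in food allergy, against 3623, 2619 and 3899 CPM in control (-1.51 ± 0.11, adjusted p = 1.64e-11). Every food allergy library lay below every control library. Ier2 (-1.54 ± 0.12), Klf2 (-1.42 ± 0.13), which keeps lymphocytes quiescent and recirculating, Egr1 (-1.38 ± 0.17), Klf6 (-1.32 ± 0.17) and Jun (-1.0 ± 0.13) moved the same way. Dusp1, a MAP kinase phosphatase, had 841, 764 and 822 CPM in food allergy, against 1702, 1671 and 1961 CPM in control (-1.14 ± 0.10, adjusted p = 1.23e-09). Outside these lists Lmna, the nuclear lamina protein, had 25.5, 44.4 and 24.2 CPM in food allergy, against 151, 102 and 159 CPM in control (-2.16 ± 0.25, adjusted p = 4.10e-07). Prr7 (-1.82 ± 0.24) and Kif23, a cytokinesis motor (-1.80 ± 0.23), were also lower without overlap.

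ILC3-like cells showed lower early response and NF-kB genes and lower Il22. Of 8763 tested genes 403 passed, 4.6 percent (110 higher, 1.26, and 293 lower, 3.34), and 244, 261 or 224 without food allergy library 1 or 2 or control library 2. Of 24 immediate early and AP-1 genes 0 were higher and 14 lower (median -0.48), and of 15 NF-kB feedback genes 0 were higher and 9 lower (median -0.55), against a median of 0.00 over all tested genes. Klf4 had 166, 147 and 293 CPM in food allergy, against 619.6, 612 and 687 CPM in control (-1.71 ± 0.11, adjusted p = 1.07e-09). Jund had 1475, 1253 and 2105 CPM in food allergy, against 3122, 3121 and 5892 CPM in control (-1.29 ± 0.06, adjusted p = 1.69e-11). Both groups were higher in July, and neither gene's groups overlapped. Nfkbia, the inhibitor that holds NF-kB in the cytoplasm, had 1192, 1189 and 1498 CPM in food allergy, against 1917, 1949 and 2240.0 CPM in control (-0.66 ± 0.05, adjusted p = 3.10e-08). Nfkb1 (-0.92 ± 0.10), Rel (-0.71 ± 0.12), Dusp1 (-0.86 ± 0.08) and Atf3 (-1.17 ± 0.09) were lower as well. Fos was not called (-0.15 ± 0.05, adjusted p = 0.0915).

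Il22 had 2011, 1686 and 1180.0 CPM in ILC3-like cells of food allergy, against 2972, 2436 and 1460.0 CPM in control. Within each run food allergy lay below control, although the groups overlapped across runs (-0.47 ± 0.07, adjusted p = 2.42e-04). In cluster 0 the gap was wider, with 752, 904 and 598 CPM in food allergy, against 3091, 2440.0 and 1084 CPM in control (-1.46 ± 0.13, adjusted p = 1.97e-06). Il22 and Lta are also ILC3 markers used in naming, and after reclustering without called genes Il22 was at -0.61 in ILC3-like cells and -1.53 in cluster 0. Different clusters held the class in the groups: cluster 10 gave 188 cells in food allergy and 77 in control, and cluster 8 gave 94 and 242, beside 944 and 1125 in cluster 1. At the finer resolution a cluster led by Lta held 527 cells in food allergy and 92 in control, and one led by Il22 192 and 780. The part of that split in the values of Il22, Ahr and Lta was not tested. Ahr, the aryl hydrocarbon receptor that ILC3s need for Il22 and survival, was higher. It had 304, 269 and 272 CPM in ILC3-like cells of food allergy, against 136, 141 and 136 CPM in control (1.03 ± 0.10, adjusted p = 1.97e-07). In cluster 0 it had 319.9, 385 and 333 CPM, against 226, 229 and 199 CPM (0.67 ± 0.09, adjusted p = 7.56e-05). Lta, a lymphotoxin subunit of lymphoid tissue inducers, had 304, 261 and 179 CPM in ILC3-like cells of food allergy, against 121, 160.2 and 90.8 CPM in control (1.00 ± 0.11, adjusted p = 3.03e-06). In whole libraries Il22 fell to 299.5, 350.4 and 239 CPM in food allergy, against 783, 612 and 416 CPM in control, a call (-1.0 ± 0.12, adjusted p = 1.29e-02) lost without food allergy library 1 (-0.90) or 2 (-1.04) or control library 1 (-0.87).

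Other genes named for ILC3-like cells included Kcnk5, a potassium channel (51 UMIs in food allergy and 9 in control, 2.65 ± 0.44), and, among those lower, Lmna (-1.96 ± 0.11) and Cystm1 (-2.25 ± 0.42). Cluster 0 gave 499 calls among 9004 genes, 5.54 percent (159 higher, 1.77, and 340 lower, 3.78), and 276 or 318 without food allergy library 1 or 2 and 267 or 323 without control library 1 or 2. There 1 of 23 immediate early genes was higher (Dusp2, 1.20 ± 0.13) and 16 lower, and of 15 NF-kB feedback genes 0 were higher and 12 lower. Mitochondrial transcripts moved with them in cluster 0: of 10 mitochondrial and nuclear RNAs 5 were lower, led by mt-Nd1 (-0.45 ± 0.05), and 1, Neat1, was higher (0.47 ± 0.11), and their part was not tested. Genes lower in cluster 0 included Lmna (-2.22 ± 0.14), which is outside these lists, Klf4 (-1.73 ± 0.09) and Nfkbia (-0.80 ± 0.06). Slamf1, a self-ligand receptor of lymphocytes, was lower in cluster 0 at -2.05 ± 0.37, which was -1.41 without food allergy library 3 and, leaving out control library 3, -1.42.

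In NK cell or ILC1-like cells the NF-kB genes were lower and Areg opposite in direction to ILC2-like cells. Of 8399 tested genes 358 passed, 4.26 percent (104 higher, 1.24, and 254 lower, 3.02), and 182 without food allergy library 1 and, leaving out control library 2, 179. Of 15 NF-kB feedback genes 0 were higher and 12 lower (median -0.80), and of 24 immediate early genes 0 were higher and 15 lower (median -0.55). Areg had 21.6, 7.95 and 23.8 CPM in food allergy, against 59.7, 54.3 and 122 CPM in control (-2.15 ± 0.22, adjusted p = 1.24e-05). Nfkbid, a nuclear IkB protein, had 82.7, 88.8 and 98.5 CPM in food allergy, against 221, 257 and 309.6 CPM in control (-1.54 ± 0.10, adjusted p = 2.50e-07). Rel had 58.4, 63.0 and 66.5 CPM in food allergy, against 128, 135 and 190.2 CPM in control (-1.27 ± 0.12, adjusted p = 6.63e-06). None of these 3 overlapped between the groups. Atf3 (-1.88 ± 0.20) and Nr4a3 (-1.55 ± 0.12), both early response genes, and Mir155hg, the host gene of miR-155 (-1.91 ± 0.34), were lower too.

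Of 16 cytotoxic genes 4 were higher and 1 lower in NK cell or ILC1-like cells. Gzma, a granule protease, had 5353, 5158 and 3517 CPM in food allergy, against 3196, 2929 and 3043 CPM in control (0.59 ± 0.08, adjusted p = 3.42e-04). It was at 0.30 (adjusted p = 0.06) after reclustering without called genes, where the class took in the cluster led by Cd3g, Gzma and Klra5. That cluster held 34, 41 and 15 cells in food allergy, against 43, 41 and 30 in control, and its part was not tested. Cluster 3, led by Klre1, Klra3 and Gzma, gave 994 cells of the class in food allergy and 687 in control, and cluster 4, led by Xcl1, gave 533 and 505, a split whose part was not tested. Klre1 (0.39), Klrb1c (0.34) and Nkg7 (0.22) were higher and the chemokine Xcl1 lower (-0.40). Each of these was lost without 1 or more libraries: Klre1 without food allergy library 1 (0.37) or control library 2 (0.38), Klrb1c without food allergy library 2 (0.32) or control library 1 (0.32), Nkg7 without food allergy library 1 (0.24) or 2 (0.21) or control library 2 (0.19), and Xcl1 without food allergy library 1 (-0.34) or 2 (-0.37) or control library 2 (-0.26). Ccl9, a chemokine for myeloid cells, had 114 UMIs in food allergy, 22.2, 35.1 and 14.1 CPM, against 11 UMIs in control, 1.93, 2.09 and 5.69 CPM (2.72 ± 0.44, and 3.78 without food allergy library 3 or 3.79 without control library 3). It was also a top gene of macrophage-like cluster 16. Macrophage-like cells held 2.86, 2.85 and 3.06% of UMIs in food allergy, against 1.01, 0.803 and 1.75% in control. Their part in the Ccl9 call of NK cell or ILC1-like cells was not tested. Il22 was called in this class (3.01 ± 0.81, adjusted p = 4.46e-02) on 316 CPM in food allergy library 2, against 15.3 and 34.4 CPM in the other food allergy libraries and 10.6 to 20.2 CPM in control. It was lost without food allergy library 2 (0.77) and likewise without control library 1 (3.03, adjusted p = 0.119) or 2 (2.62, adjusted p = 0.273), and stood at -0.41 with doublets removed.

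The effects in ILC2-like cells were then set against those in the other ILC classes of the same libraries in a model with library as a block, which tests the difference itself. Against NK cell or ILC1-like cells 303 of 8022 genes differed, 3.78 percent (239 higher, 2.98, and 64 lower, 0.798), and against ILC3-like cells 271 of 8316, 3.26 percent (233 higher, 2.8, and 38 lower, 0.457). The first count was 200 or 159 without food allergy library 1 or 3 and 161 or 156 without control library 1 or 3, and the second 144 without food allergy library 1 and, leaving out control library 3, 179. Of 15 NF-kB feedback genes 9 had a higher effect in ILC2-like than in NK cell or ILC1-like cells and 0 a lower one, and 8 and 0 against ILC3-like cells. Of 24 immediate early genes 10 had a higher and 7 a lower effect against NK cell or ILC1-like cells, and 11 and 6 against ILC3-like cells.

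Areg differed by 3.87 ± 0.21 on the log2 scale against NK cell or ILC1-like cells and by 2.70 ± 0.26 against ILC3-like cells, where Areg itself had 9.0, 25.6 and 15.3 CPM in food allergy, against 25.8, 41.7 and 35.7 CPM in control. That ILC3-like decrease (-1.02, adjusted p = 0.0442) was lost without food allergy library 1 (-0.68) or control library 2 (-0.82). Rel differed by 3.02 ± 0.19 and 2.48 ± 0.20, Egr2 by 3.59 ± 0.58 and 2.38 ± 0.46 (4.59 and 3.12 without control library 1 but 2.63 and 1.62 when control library 2 was left out), Nab2 by 2.60 ± 0.40 and 2.31 ± 0.39, and Atf3 by 2.38 ± 0.26 and 1.74 ± 0.19, against NK cell or ILC1-like and ILC3-like cells in that order. In the other direction stood Fos (-1.45 ± 0.11 and -1.32 ± 0.10), Klf2 (-1.54 ± 0.11 and -0.93 ± 0.15), Klf6 (-1.55 ± 0.15 and -1.03 ± 0.18) and Ier2 (-1.05 ± 0.11 and -1.09 ± 0.11). Jund fell in all 3 classes, and its difference missed the threshold against NK cell or ILC1-like cells (-0.03 ± 0.09, adjusted p = 0.952) and against ILC3-like cells (0.24 ± 0.08, adjusted p = 0.127). The Il13 difference also missed it (0.81 ± 0.89 and 1.22 ± 0.64), on few UMIs outside ILC2-like cells. NK cell or ILC1-like cells held 41 UMIs of Il13 in food allergy and 4 in control, and ILC3-like cells 26 and 8. ILC2-like cells held 3422 and 310. At such counts a missed threshold does not show a like change in those classes.

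**Figure D3:**
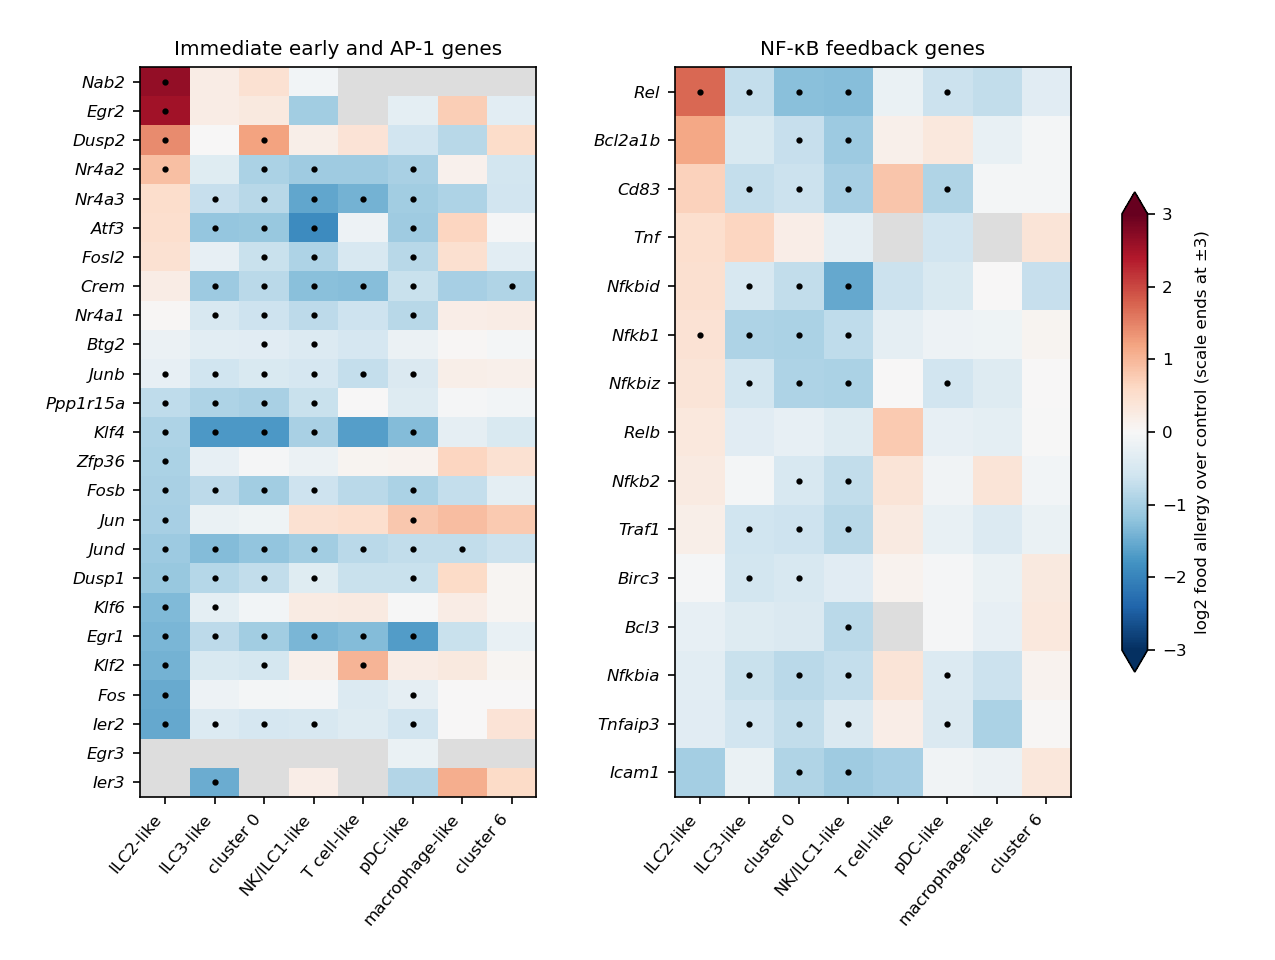
Log2 fold change of food allergy over control (colour, scale ending at ±3) for immediate early and AP-1 genes (left) and NF-kB feedback genes (right) in 8 classes; dots mark an adjusted p under 0.05 and grey a gene below the count filter. Rel is red in ILC2-like cells (1.72) and blue in NK cell or ILC1-like cells (-1.27), Fos is deepest blue in ILC2-like cells (-1.51), and Jund is blue in every column.

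Plasmacytoid dendritic cell (pDC)-like cells, the main makers of type I interferon, gave 195 calls among 9487 genes, 2.06 percent (74 higher, 0.78, and 121 lower, 1.28). The count was 119, 115 and 317 without food allergy library 1, 2 or 3, and 79, 77 and 347 without control library 1, 2 or 3. Ddit4, an mTOR inhibitor induced by stress and glucocorticoids, had 56.3, 45.3 and 38.5 CPM in food allergy, against 8.42, 10.7 and 12.9 CPM in control (2.20 ± 0.19, adjusted p = 1.30e-05). Egr1 had 12.2, 7.26 and 80.4 CPM in food allergy, against 24.4, 27.2 and 286 CPM in control (-1.67 ± 0.15), with July high in both groups, and Jun was higher (0.80 ± 0.07). Of 24 immediate early genes 1 was higher and 14 lower. Of 10 mitochondrial and nuclear RNAs 3 were lower, mt-Nd1 (-0.31), mt-Nd2 (-0.34) and mt-Co2 (-0.22), and Neat1 was higher (0.67), and their part was not tested. Of 10 MHC class II genes 3 were higher (H2-Aa 0.38, H2-Ab1 0.41 and H2-Eb1 0.35), each lost without control library 2 (adjusted p 0.122, 0.149 and 0.16) and H2-Eb1 also without food allergy library 1 (0.34).

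Macrophage-like cells gave 29 calls among 3057 genes, 0.949 percent (17 higher, 0.556, and 12 lower, 0.393), and 5 of 11 chemokines were higher and 0 lower. The calls numbered 18 or 44 without food allergy library 1 or 2 and 13 without control library 1. Ccl3, which draws in monocytes and granulocytes, had 639.9, 526 and 629.7 CPM in food allergy, against 10.7, 53.2 and 238 CPM in control (2.47 ± 0.37, adjusted p = 3.00e-03), and 4.28 without food allergy library 3 or 4.31 without control library 3. Ccl4 had 704, 1107 and 1496 CPM in food allergy, against 396, 159.5 and 679 CPM in control (1.43 ± 0.24, adjusted p = 5.84e-03). Osm, the cytokine oncostatin M, had 375, 505 and 714 CPM in food allergy, against 118, 133 and 231 CPM in control (1.72 ± 0.23, adjusted p = 8.97e-04). Neither Ccl3, Ccl4 nor Osm overlapped between groups. The class was held by different clusters in the groups: cluster 16 gave 137 of 194 such cells in food allergy and 40 of 111 in control, and cluster 21, with a median of 780 UMIs per cell against 6578 in cluster 16, gave 57 in food allergy and 71 in control. The part of that split in these values was not tested. C1qa, a complement gene that marks cluster 21, had 469, 483 and 100.3 CPM in food allergy, against 2119, 877 and 1414 CPM in control.

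T cell-like cells gave 33 calls among 4496 genes, 0.734 percent (5 or 138 without food allergy library 1 or 3 and 19 or 129 without control library 2 or 3), led by lower genes Crem (-1.27 ± 0.20) and Litaf (-1.35 ± 0.22). The class joined cluster 7, with 245 cells in food allergy and 104 in control, and cluster 14, with 85 and 106, and the part of that split was not tested. After clustering without called genes, where the cluster led by Cd3g, Gzma and Klra5 was named NK cell or ILC1-like, the T cell-like class gave 2 calls. Cluster 6 gave 23 among 7052, 0.326 percent (7 or 46 without food allergy library 2 or 3 and 6 or 46 without control library 2 or 3), led by Wfdc17, an antiprotease-like gene, with 143, 65.5 and 122 CPM in food allergy, against 18.3, 16.7 and 39.9 CPM in control (2.25 ± 0.29, adjusted p = 1.77e-03). Wfdc17 was also a top gene of macrophage-like cluster 16, whose part in this call was not tested.

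Hspa1a, the inducible Hsp70 chaperone, was higher in several classes and was not called in ILC2-like cells. It had 390.4, 397 and 167 CPM in cluster 0 of food allergy, against 117, 113 and 21.6 CPM in control (2.00 ± 0.14, adjusted p = 1.01e-07). In pDC-like cells it had 177, 173 and 72.4 CPM, against 61.6, 37.9 and 15.9 CPM in control (1.89 ± 0.14). In NK cell or ILC1-like cells the change was 2.22 ± 0.26 (2.98 without control library 2), in ILC3-like cells 1.45 ± 0.24 (2.12 without control library 2) and in cluster 6 1.31 ± 0.14. In T cell-like cells it was 2.01 ± 0.33 (1.86, adjusted p = 0.0569, without food allergy library 1, and 2.72 when control library 2 was left out). In ILC2-like cells it had 135, 237 and 78.4 CPM in food allergy, against 302, 193 and 17.6 CPM in control (-0.02 ± 0.26, adjusted p = 0.987), and the difference of effects from NK cell or ILC1-like cells was -2.25 ± 0.31 (-1.28, adjusted p = 0.0897, without control library 1 and, leaving out control library 2, -3.05). Some histone genes, from a set picked by name that also takes in H1f0 and chosen after their values were seen, were higher in several classes. Hist1h4i had 30.8, 31.2 and 28.9 CPM in whole libraries of food allergy, against 9.52, 10.6 and 9.81 CPM in control (1.60 ± 0.08, adjusted p = 1.97e-03), and of 43 tested histone cluster genes 8 were higher and 0 lower. In NK cell or ILC1-like cells Hist1h4i was at 2.21 ± 0.27 and Hist1h1d had 61 UMIs in food allergy and 3 in control. In ILC3-like cells Hist1h4i was at 1.79 ± 0.25.

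Some transcripts of mast cells and epithelium were found at a like low level in classes that do not make them, and this level differed between groups. Mcpt1 was at 59.3, 58.8 and 87.7 CPM in ILC2-like cells of food allergy, against 0, 0 and 41.4 CPM in control. In NK cell or ILC1-like cells it was at 69.2, 83.9 and 94.7 CPM, against 6.61, 2.04 and 35.3 CPM, and in ILC3-like cells at 66.0, 76.3 and 89.4 CPM, against 11.3, 5.77 and 32.1 CPM in control. Mast cell-like cells themselves had 74300 to 81920 CPM in food allergy, against 18190 to 33320 CPM in control. The log2 fold change outside mast cells was near equal, 2.15 ± 0.25 in ILC3-like cells (2.96 without food allergy library 3 and, leaving out control library 3, 2.95), 2.39 in NK cell or ILC1-like cells (4.07 without either July library) and 2.13 in ILC2-like cells, where the September controls had 0 UMIs and no fold is given without the July libraries. The difference of these effects between ILC2-like and NK cell or ILC1-like cells was 0.03 ± 0.44 (adjusted p = 0.996). Lyz1, of Paneth cells, was lower in ILC3-like cells, with 9.30, 1.61 and 2.18 CPM in food allergy, against 24.2, 24.7 and 137 CPM in control. Epithelial-like cells held 2950 of its UMIs in food allergy and 23309 in control, and macrophage-like cells 815 and 309. Fabp2, of enterocytes, was lower in NK cell or ILC1-like cells, with 8.31, 3.30 and 9.47 CPM, against 19.8, 44.9 and 133 CPM. Calls of such genes within a class, Mcpt1, Mcpt2, Lyz1, Fabp2 and Defa24 among them, therefore stand beside a background that moved with the condition, and its part in other calls was not tested.

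**Figure D4:**
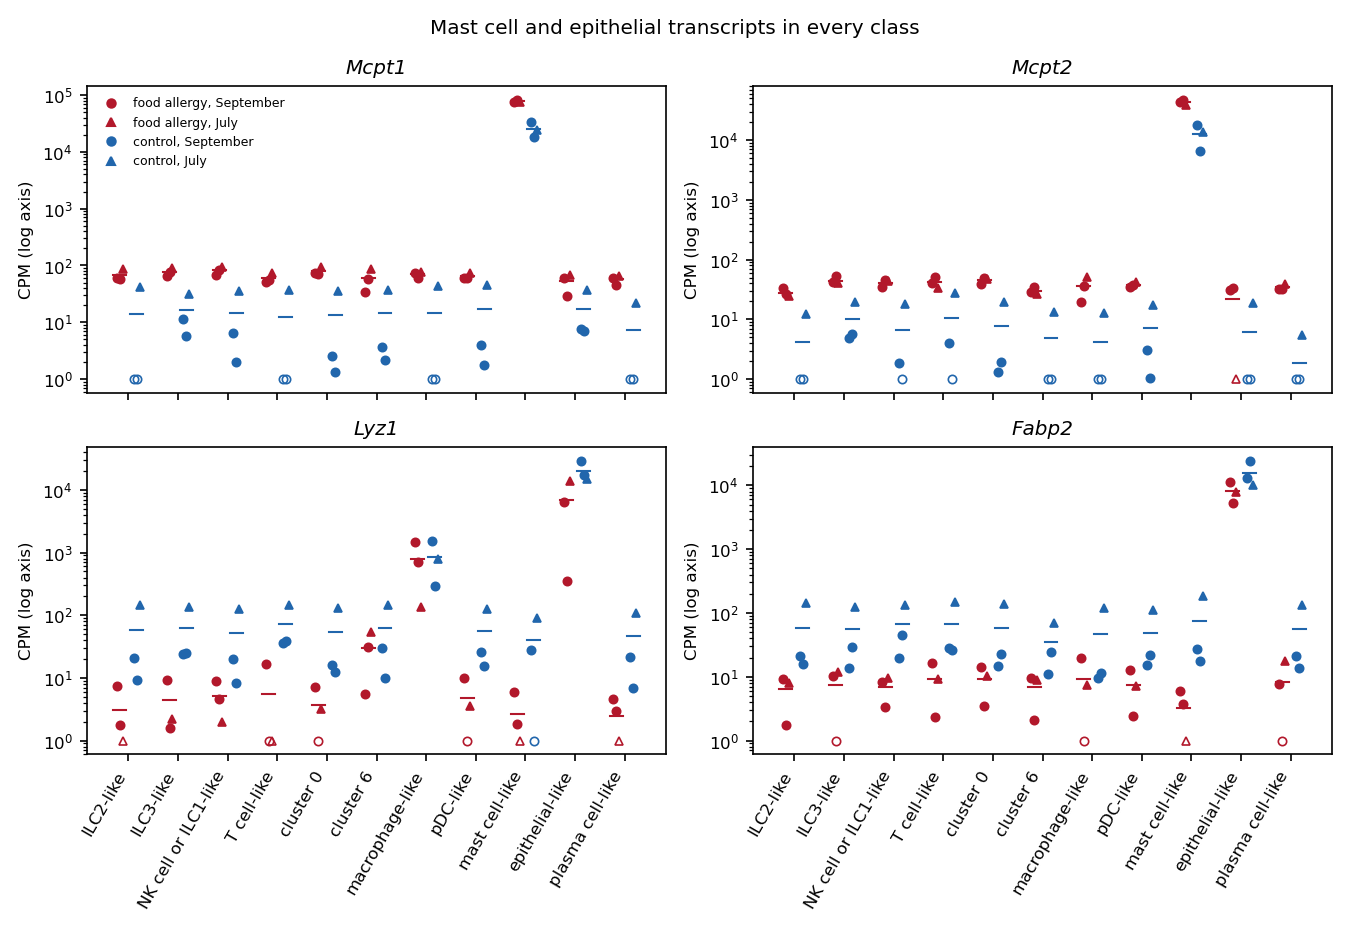
CPM (log axis) of Mcpt1, Mcpt2, Lyz1 and Fabp2 in 11 classes per library, food allergy to the left of control; circles are September libraries, triangles July libraries, bars group means, and open symbols libraries with 0 UMIs drawn at 1 CPM. In the 3 ILC classes Mcpt1 lies between 58.8 and 94.7 CPM in food allergy, against 0 to 41.4 CPM in control.

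The whole-library effects were last compared with those of the lamina propria nonTB libraries (3 food allergy and 3 control) and of the other Peyer's patch runs (7 and 7 samples in the labels, 13 with cells) in 1 model with an interaction. Libraries of the other Peyer's patch runs were summed per run and condition, so they entered the model as 3 food allergy and 3 control sums. Against lamina propria 68 of 14286 genes differed, 0.476 percent (25 higher, 0.175, and 43 lower, 0.301), and 19 to 33 without any 1 of the 6 innate-rich libraries. Within that model 144 genes were called in the innate-rich runs, 1.01 percent (74 higher, 0.518, and 70 lower, 0.49), and 958 in lamina propria, 6.71 percent (482 higher, 3.37, and 476 lower, 3.33). Some mast cell genes had a smaller effect in these Peyer's patch runs. Hdc had an effect of 1.64 here and 4.92 in lamina propria (difference -3.27 ± 0.40, adjusted p = 6.16e-03), and Cma1 2.07 and 6.76 (-4.69 ± 0.72, adjusted p = 1.97e-02, and -3.93 without either July library). Furin, a proprotein convertase, had 0.48 here and 2.35 in lamina propria (-1.87 ± 0.13). Interferon response genes differed the other way, 5 of 21 with a higher effect and 0 with a lower one: Irf7, the pDC interferon regulator, had -0.33 here and -1.85 in lamina propria (1.51 ± 0.17, adjusted p = 4.87e-03), Ifi27l2a 0.08 and -1.20, and Ifi44 0.17 and -1.50. Each of the genes named so far in this comparison passed in every fit that left out 1 library of the innate-rich runs, whereas Usp18 and Xaf1, the other interferon response genes called, did not. The Il13 effect was 3.35 here, 3.94 in lamina propria and 3.48 in the other Peyer's patch runs, where it was not called. Its difference from lamina propria missed the threshold (-0.59 ± 0.38, adjusted p = 0.592). That of Mcpt1 did too (-0.87 ± 1.74, adjusted p = 0.908).

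Against the other Peyer's patch runs 3 of 14286 genes differed, 0.021 percent (2 higher, 0.014, and 1 lower, 0.007). Within that model 0 of 14286 genes were called in the other Peyer's patch runs themselves. The small number of differences therefore does not show that the effects were alike. Hist1h4i had an effect of 1.59 here and 0.02 there (1.58 ± 0.16, adjusted p = 7.01e-03), and Prr7 -1.25 and 0.14 (-1.39 ± 0.16, adjusted p = 1.39e-02). The Prr7 difference passed in 0 of 6 fits that left out 1 library and that of Hist1h4i in 4 of 6. The third was an immunoglobulin segment. Experiments differ in date, cell sort and cell make-up, which cannot be told apart from tissue.

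**Figure D5:**
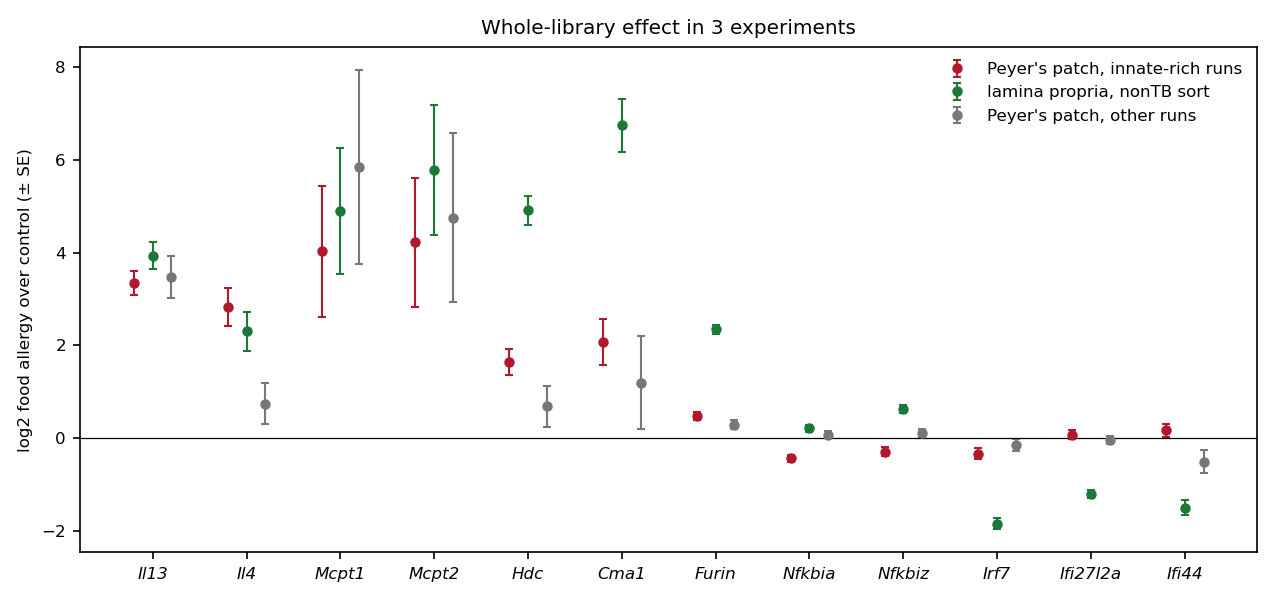
Log2 fold change of food allergy over control in whole libraries (± SE) for 12 genes in the innate-rich Peyer's patch runs (red), the lamina propria nonTB libraries (green) and the other Peyer's patch runs (grey). Il13 lies between 3.35 and 3.94 in all 3, whereas Hdc, Cma1 and Furin are highest and Irf7, Ifi27l2a and Ifi44 lowest in lamina propria. No gene, Il13 included, was called in the other Peyer's patch runs.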

How the data were processed

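Cells of 3 food allergy and 3 control Peyer's patch libraries were read from the series' matrix of raw UMI counts per gene and cell, which the authors deposited as whole-number counts. Per the submitters' processing notes, bcl2fastq, Cell Ranger, Bowtie2 and RSEM were used on build mm10; which step made the matrix is not given in the sources used here. Per the labels' protocols, 10x single-cell RNA-seq was used. The deposited cells had at least 501 UMIs and at most 13.4% mitochondrial UMIs, and no further filter was applied. Library totals and medians are given above, and their size limits low genes.

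Cells were scaled to 10000 UMIs, log-transformed and clustered with scanpy 1.11.5 and leidenalg 0.10.2 (2500 variable genes, 40 run-centred components, 20 neighbours, resolution 0.6), and clusters were named from marker lists. Simulated doublets marked 259 cells (1.753%), which were kept and removed as an alternative. UMIs were summed per library and class (at least 20 cells in each library) and tested with edgeR 4.0.16 in R 4.3.3 (TMM, filterByExpr, quasi-likelihood, run and condition as terms, Benjamini-Hochberg adjustment over all tested genes, threshold 0.05). Class differences used sums of both classes with library as a block, and experiments were compared by an interaction. For that comparison the other Peyer's patch libraries were summed per run and condition. CPM are UMIs scaled to a common total of the sum, with TMM factors. Those of background transcripts, and of Il13 in classes other than ILC2-like cells, are unscaled. Shares of classes of at least 50 cells were compared by exact permutation within runs. DESeq2 1.42.0, no low-count filter, leaving out each library, the September run alone, no run term and a replicate block were among the alternatives. The method was tested on simulated data.

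Members and all 31 gene lists were chosen with earlier results of these data known. Named genes were, for whole libraries, Il4, Il5 and Il13, up to 12 genes of largest change in each direction, and for classes up to 4. These genes had at least 50 UMIs, the same sign in both runs and an adjusted p under 0.05 in every fit that left out 1 library. List members past 0.05 were added, up to 4 examples a list. Histone genes, receptors given as not called and genes of the background transcripts were chosen after their values were seen.

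Promoters are from RefSeq's GRCm38.p6 table, and gene positions from the GENCODE annotation of GRCm38 (mm10).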

Additional observations from a re-analysis of the deposited data

Results flagged for a closer look

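Effects in ILC2-like cells differed from those in NK cell or ILC1-like cells of the same libraries for 303 genes by the test of the difference (edgeR, adjusted p under 0.05). Among the named ones were Areg (3.87), Egr2 (3.59), Rel (3.02) and Nab2 (2.60) on the higher side and Fos (-1.45), Jun (-1.46), Klf2 (-1.54) and Klf6 (-1.55) on the lower side. Against ILC3-like cells 271 genes differed. Higher were Il17a (4.36, on 105 UMIs in ILC2-like cells of food allergy and 3 in control, and 3.22 without food allergy library 1), Cxcl2 (3.12, and 2.23 without control library 3), Areg (2.70) and Rel (2.48), and lower were Klf2 (-0.93), Klf6 (-1.03), Ier2 (-1.09) and Fos (-1.32). Passing in each of the 6 fits that left out 1 library was a condition for being listed here.

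Between experiments, 68 genes had another effect in whole libraries here than in lamina propria nonTB libraries, among them Ifi44 (1.67), Irf7 (1.51), Ifi27l2a (1.28), Hdc (-3.27) and Cma1 (-4.69). Against the other Peyer's patch runs, where 0 genes were called in the same model, 3 genes differed, Hist1h4i by 1.58 and Prr7 by -1.39 among them. Date, sort and cell make-up of the experiments cannot be told apart from tissue, and their part was not tested.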

How the results depend on the processing

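Counts of changed genes depended on the fit. In whole libraries, against 494, there were 250 with no filter on low counts, 11 with no run term and 947 in the September run alone, and 9 to 851 without 1 library. With DESeq2 the counts were 102 in ILC2-like, 164 in ILC3-like, 147 in NK cell or ILC1-like, 191 in cluster 0 and 77 in pDC-like cells. They were 231 against lamina propria, 35 against the other Peyer's patch runs, 90 for ILC2-like minus NK cell or ILC1-like cells and 117 for ILC2-like minus ILC3-like cells. With no run term there were 64 calls in ILC2-like, 71 in ILC3-like, 26 in NK cell or ILC1-like and 62 in cluster 0 cells, and in edgeR 0 in T cell-like, cluster 6, macrophage-like and pDC-like cells, where 316, 306, 267 and 498 genes had an unadjusted p under 0.05. With no filter on low counts there were 588 in NK cell or ILC1-like, 111 in T cell-like, 4 in cluster 6, 433 in pDC-like and in edgeR 0 in macrophage-like cells (668 at an unadjusted p under 0.05). The September run alone gave 67 in T cell-like, 41 in cluster 6, 16 in macrophage-like and 352 in pDC-like cells. Macrophage-like cells gave 19 with cells of at least 1000 UMIs and 48 after clustering without called genes, and T cell-like cells 2 after that clustering. Without 1 library the counts ranged from 164 to 196 (ILC2-like), 224 to 468 (ILC3-like), 179 to 360 (NK cell or ILC1-like), 5 to 138 (T cell-like), 267 to 408 (cluster 0), 6 to 46 (cluster 6), 13 to 44 (macrophage-like), 77 to 347 (pDC-like), 156 to 235 and 144 to 264 (the class differences), 19 to 33 (lamina propria) and 0 to 3 (other Peyer's patch runs; 764 and 754 genes at an unadjusted p under 0.05 where edgeR gave 0). With shared barcodes removed the counts were 510.0 in whole libraries, 198 in ILC2-like, 380.0 in ILC3-like and 372 in NK cell or ILC1-like cells.

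Only the September libraries carry numbers in the labels. Their differences of library 1 minus 2 correlated across genes, which are not independent replicates, at 0.152 between food allergy and control, and the libraries share only a number. With the replicate block the counts were 102 in whole libraries, 1 in T cell-like cells and 12 in cluster 6.

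For shares, the test of cell numbers in edgeR passed where exact permutation could not: B cell-like 0.416 (0.414 with the replicate block), NK cell or ILC1-like 1.29, T cell-like 1.54 (1.55), cluster 6 0.606 (0.606), endothelial-like 0.411 (0.406), macrophage-like 1.83 (1.84), mast cell-like 3.78 (3.73), plasma cell-like 1.73 (1.73) and stromal-like 0.394 (0.396), as ratios of food allergy to control. The cDC1-like ratio turned below 1 with shared barcodes removed (0.999) and after clustering without called genes (0.979). Without 1 library the ratio crossed 1 for cDC1-like (0.768 to 1.20), mature DC-like (0.589 to 1.16), neutrophil-like (0.691 to 1.79) and pDC-like cells (0.953 to 1.28), and for mast cell-like cells it lay between 3.18 and 5.07. Gata2 in whole libraries turned to -0.031 without mast cell-like cells. Il22 in NK cell or ILC1-like cells turned to -0.41, and its difference from ILC2-like cells to 0.34, with doublets removed. Of the values of single genes outside fits that left out a library, 4544 kept direction and side of the threshold, 854 lost the call and 3 reversed. The cause of these shifts was not tested. Depth limits genes with few UMIs in small classes, and 3 libraries a group allow no exact p under 0.1667.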

Other observations

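Of 21 tested chemokine and homing receptors, 5 passed in whole libraries, all higher in food allergy (median log2 fold change 0.31, against 0.01 over all tested genes). Ccr4, a receptor of type 2 lymphocytes for Ccl17 and Ccl22, had 8.10, 9.13 and 14.5 CPM in food allergy, against 3.17, 3.33 and 3.79 CPM in control (1.58 ± 0.17, adjusted p = 1.04e-02 in edgeR). ILC2-like cells held 87.3% of its food allergy UMIs and 79.8% of its control UMIs. Within that class it had 168, 196 and 148 CPM in food allergy, against 97.8, 88.8 and 48.5 CPM in control (1.16 ± 0.20, adjusted p = 1.42e-04). The groups of Ccr4 did not overlap in either sum. The whole-library call was lost without food allergy library 2 (1.57, adjusted p = 0.0706) and, of the controls, without library 1 (1.62, adjusted p = 0.0771).

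Ccr10, which guides plasma cells to mucosal epithelium, had 17.3, 16.3 and 5.60 CPM in food allergy, against 6.34, 6.11 and 2.23 CPM in control (1.41 ± 0.11, adjusted p = 6.78e-03). Both groups were low in July, and within each run food allergy was higher. Plasma cell-like cells held 97.2% of its food allergy UMIs and 94.2% of its control UMIs, and their share of cells moved with it (a part that was not tested). The call was lost without control library 1 (1.41, adjusted p = 0.0635).

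Of 13 tested neutrophil granule and inflammation genes 3 were higher and 1 lower. S100a9, a calcium-binding alarmin, had 80.6, 174 and 35.9 CPM in food allergy, against 40.9, 44.7 and 14.9 CPM in control, and the groups overlapped. Its call (1.49 ± 0.28, adjusted p = 4.47e-02) was lost without control library 1 (1.41, adjusted p = 0.2) or 2 (1.49, adjusted p = 0.153).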
